A study of Mus musculus with 25 samples.

Results

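WT31 and RET are 2 murine melanoma cell lines, and the comparison of WT31 with RET used 10 of the 25 RNA-seq libraries of the study, 5 of each line, chosen by the cell line named in the labels. The other 15 libraries came from B16F10 luc2, D4M and HCmel12, 5 of each. In the study, liver metastases were counted in mice after cells of these 5 lines had been injected into the spleen. From these counts WT31 and RET were placed, with B16F10 luc2, in the group of high and intermediate metastatic lines (HIM-melanoma). Within this group the study classed WT31 as high and RET and B16F10 luc2 as intermediate. WT31 cells came from Tyr::Nras Q61K, INK4a-/- mice, in which mutant Nras is driven in melanocytes by the tyrosinase promoter and the INK4a locus is deleted. RET cells came from metallothionein-I (MT)/RET transgenic mice, in which the human RET proto-oncogene is overexpressed from the mouse metallothionein promoter. Both lines were grown untreated in RPMI medium with 10% fetal calf serum and harvested at 50% confluency. Each genotype is represented by a single line, so genotype, animal and line cannot be told apart, and the 5 libraries of a line are labelled as biological replicates without naming separate cultures. The p-values therefore measure only the spread between libraries of a line, which was estimated over all 25 libraries and may be technical.

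RAS proteins are switches that pass signals from receptors on the cell surface to the RAF, MEK and ERK kinases, and a change at codon 61 of Nras leaves the protein switched on. RET is a receptor tyrosine kinase that is activated by ligands of the GDNF family together with GFRA co-receptors and signals upstream of RAS. The INK4a locus (Cdkn2a) encodes cell cycle inhibitors that are commonly lost in melanoma, and melanocytes depend on the transcription factor Mitf, the receptor Kit and the endothelin receptor Ednrb during their development.

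Library totals lay between 24332170 and 25843286 estimated counts, with a median of 24843836 in WT31 and 24521435 in RET. Correlations of log2 CPM lay between 0.981 and 0.988 within a line and between 0.825 and 0.840 across the lines. WT31 replicate 4 stood slightly apart, with a mean correlation of 0.839 with the RET libraries against 0.826 to 0.828 for the other WT31 libraries. It held 44 counts of Chchd10, 17 of Gsdmc and 12 of Slc2a5, the last chosen after its values were seen, where no other WT31 library held more than 4, 2 and 1. Chosen after its values were seen, Mcoln3 held 9 counts there, and no other WT31 library held more than 2. Its level in replicate 4 was 237% of the RET mean and 0.31% of the B16F10 luc2 mean of 113 CPM. For Chchd10, Gsdmc and Slc2a5 the level there was 0.72%, 0.35% and 0.78% of the RET mean. Against the B16F10 luc2 mean these 3 stood at 0.44%, 0.51% and 0.93%. The source of these counts was not tested. The melanocyte factor Mitf was present in both lines, at 416 ± 82.4 CPM in WT31 and 434 ± 57.6 CPM in RET (SD, n = 5). Not every gene of the melanocyte lineage was, since Ednrb and Lef1, described below, held almost no counts in RET. The melanocyte marker Kit stood at 531 CPM in WT31 and 0.739 CPM in RET, while Tyr and Tyrp1, given below, were measured in both lines. No sum of melanocyte markers is given. Summed markers of other cell types lay between 1.75 and 2.46 CPM in WT31 and 0.0372 and 0.120 in RET for keratinocytes, 4.39 and 12.6 in WT31 and 3.99 and 4.52 in RET for leukocytes, and 5.50 and 7.52 in WT31 and 9.99 and 13.4 in RET for endothelial cells. Summed fibroblast markers lay between 3.08 and 4.89 CPM in WT31 and 32.0 and 102 CPM in RET, the highest value in RET replicate 3. Of the 9 fibroblast markers 6 were tested and 4 were lower in WT31 (2 where at least 10 counts in every WT31 and RET library were required), with Col1a1 at 30.8, Pdgfrb at 13.0 and Col1a2 at 6.0 CPM in RET, while in each line 3 of the 9 held at most 3 counts in every library. The part of other cells in the results was not tested.

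Most of the measured transcriptome differed between the lines. Of 15247 genes that passed the filter on low counts, 11164 (73.2%) passed the test at an adjusted p under 0.05, 5614 (36.8%) higher and 5550 (36.4%) lower in WT31. All tests were made with limma on voom-transformed counts, with Benjamini-Hochberg adjustment over all tested genes. The median absolute log2 fold change of the called genes was 0.82, and 4754 genes (31.2%) were called with a fold of at least 2, 2538 higher and 2216 lower. A further step out, 411 genes were higher and 352 lower by at least 5 on the log2 scale. In 4692 genes every WT31 library lay above every RET library, and in 4678 every WT31 library lay below. Levels are given as CPM, the TMM-scaled counts per 1000000 counts, with the mean ± SD of 5 libraries, fold changes are WT31 relative to RET, and the percentages above are the background against which counts of listed genes should be read. Where the 5 libraries of a line held no count, the fold is a lower bound against 3 counts over those libraries. Where they held 1 to 3 counts in total, the ratio is given with its 95% counting interval, since the fitted value then depends on the prior count of the transformation, and estimated counts were rounded to whole numbers for it. Floors and intervals cover counting error only. For each list, brackets after the called members give those with a fold of at least 2 and, where a count moved by over 1.5 times, those under a stricter filter that requires at least 10 counts in every WT31 and RET library and so leaves out genes at or near 0 in a line. Under the stricter filter 11407 genes were tested over all, of which 4469 were higher and 4199 lower in WT31. For most lists the number of members tested under it is not given, so those counts cannot be read as shares. Without WT31 replicate 4, 5577 genes were higher and 5487 lower, and without RET replicate 3 the counts were 5538 and 5475.

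Some genes share sequence with others, which makes the assignment of their counts uncertain. Of all 31-base sequences of a gene, the share also found in another gene was 22.3% for Ccnd1, 30.3% for Etv5, 33.9% for Hoxa11 (mostly with its antisense gene Hoxa11os), 27.1% for Idi1, 23.9% for Gsdmc, 55.5% for Ifitm2, 20.5% for Ifitm3, 21.96% for Mest and 26.9% for Tapbp. It was 40.2% for Slc24a5, 28.1% for Gapdh, 22.8% for H2-K1, 20.1% for Mc1r, 19.5% for Cdk4 and 19.4% for Fndc3c1. For some further genes the share is given beside the gene.

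**Figure D1:**
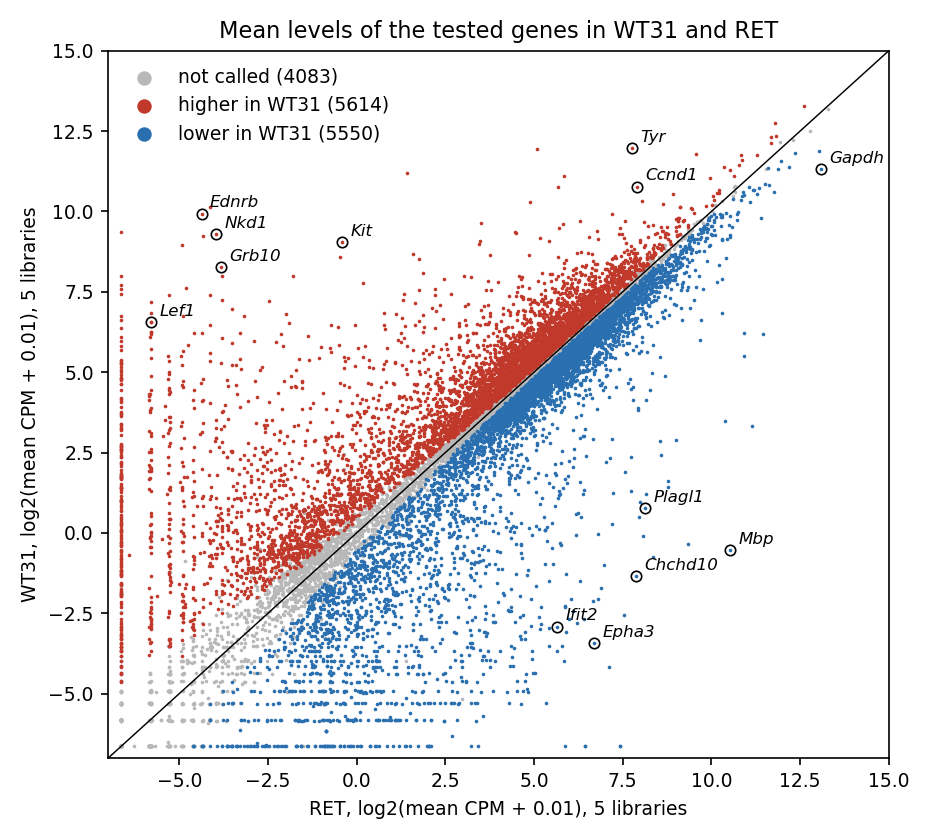
Each point is one of the 15247 tested genes, with log2 of the mean CPM plus 0.01 over the 5 RET libraries on the horizontal axis and over the 5 WT31 libraries on the vertical axis. Genes above the diagonal such as Ednrb and Kit were higher in WT31, genes below it such as Mbp and Epha3 were lower, and grey points did not pass the test.

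Among genes of the genotypes and other melanoma driver and cell cycle genes, WT31 held more Nras, Ccnd1 and Kit and less Mt1, Mt2 and Braf than RET. Of 23 listed genes 22 passed the filter, 11 were higher and 8 lower in WT31 (6 and 5 by at least 2-fold), 3 did not pass the test, and the median log2 fold change was 0.19. Mouse Nras (ENSMUSG00000027852.14, chr3:103058285-103067914), the gene named in the genotype of WT31, stood at 154, 146, 173, 169 and 192 CPM in WT31 replicates 1 to 5 and at 96.0, 97.9, 95.0, 95.9 and 96.3 CPM in RET replicates 1 to 5. The lines did not overlap, and Nras was 1.73-fold higher in WT31 (log2 fold change 0.79, SE 0.059, adjusted p = 4.29e-12). On the deposited TPM, which divide by transcript length, the difference was larger, at 430.4 ± 99.8 TPM in WT31 and 45.8 ± 2.16 TPM in RET (log2 fold change 3.18 with a pseudocount of 1 and 3.20 with 0.1). The cause of this gap between counts and TPM was not tested, and values per gene do not separate the transgene from the endogenous gene. The study describes the NRAS mutation of WT31 as human, and how far reads of a human transgene enter the mouse row was not tested. Hras was lower in WT31 (56.4 against 85.8 CPM, log2 fold change -0.60, SE 0.062, adjusted p = 2.24e-09).

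Cdkn2a, the INK4a gene, held 69 to 85 counts in each WT31 library, 2.83 ± 0.235 CPM, and no count in any RET library, a difference of at least 121-fold (adjusted p = 3.00e-15). The values per gene do not show which exons the WT31 reads came from, so this level does not check the deletion named in the genotype. Its neighbour Cdkn2b, which encodes another inhibitor of cyclin D kinases, stood at 38.0, 56.1, 36.8, 45.7 and 32.8 CPM in the WT31 libraries and at 0 in every RET library, at least 1792-fold higher (adjusted p = 3.84e-15). On the other side of the locus Mtap, a methionine salvage enzyme, was measured in both lines and was lower in WT31 (231 against 502 CPM, log2 fold change -1.12, SE 0.082, adjusted p = 3.21e-12). Cdkn2a stood at 0 CPM in B16F10 luc2, 0.0614 in D4M and 203 in HCmel12.

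Mouse Ret itself was near zero in both lines, with 5 counts over the WT31 and 6 over the RET libraries, and was not tested. The human RET transgene has no row of its own among the mouse genes and was not analysed here. Mt1, whose promoter drives the transgene, stood at 138, 161, 209, 194 and 302 CPM in WT31 and 627, 585, 472, 583 and 598 CPM in RET. No library overlapped, and Mt1 was lower in WT31 by 2.95-fold (adjusted p = 5.27e-10). Mt2, a neighbouring metallothionein, was lower as well (93.8 against 353 CPM, log2 fold change -1.96, SE 0.18, adjusted p = 3.72e-10), with 58.1% of its 31-base sequences shared with other genes. Both were lowest within RET in replicate 3.

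Cyclins and other growth regulators divided between the lines. Ccnd1, which drives cells into the cell cycle and is a target of ERK and WNT signalling, stood at 1749.6, 1959, 1697, 1807 and 1509 CPM in WT31 and 207, 241, 308, 222 and 222 CPM in RET, 7.31-fold higher in WT31 (log2 fold change 2.87, SE 0.15, adjusted p = 1.91e-15). The libraries did not overlap. Its partner Cdk6 was higher in WT31 (85.6 against 30.0 CPM, log2 fold change 1.50, SE 0.10, adjusted p = 6.34e-13), while Cdk4 differed little (635 against 559 CPM, log2 fold change 0.18, adjusted p = 7.98e-04). Ccnd2, another D cyclin, was lower in WT31 (191 against 877 CPM, log2 fold change -2.20, SE 0.10, adjusted p = 2.91e-16). Braf and Mdm2 were lower in WT31 by 2.29-fold and 1.71-fold, and Rb1 and Met were higher by 1.61-fold and 2.69-fold. Braf and Ccnd2 lie on chromosome 6, most genes of which were lower in WT31, and so does Met, which was higher. Nf1, a brake on RAS, was called higher with overlapping libraries (92.9 against 75.5 CPM, log2 fold change 0.30, adjusted p = 3.38e-04), and on TPM its fold change was of opposite sign and not called. Trp53 (206 against 190.2 CPM), Myc (101 against 125 CPM) and Hgf (1 count in WT31, 0 in RET) did not pass the test, and Trp53 was called higher in WT31 on TPM (adjusted p = 0.0099).

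**Figure D2:**
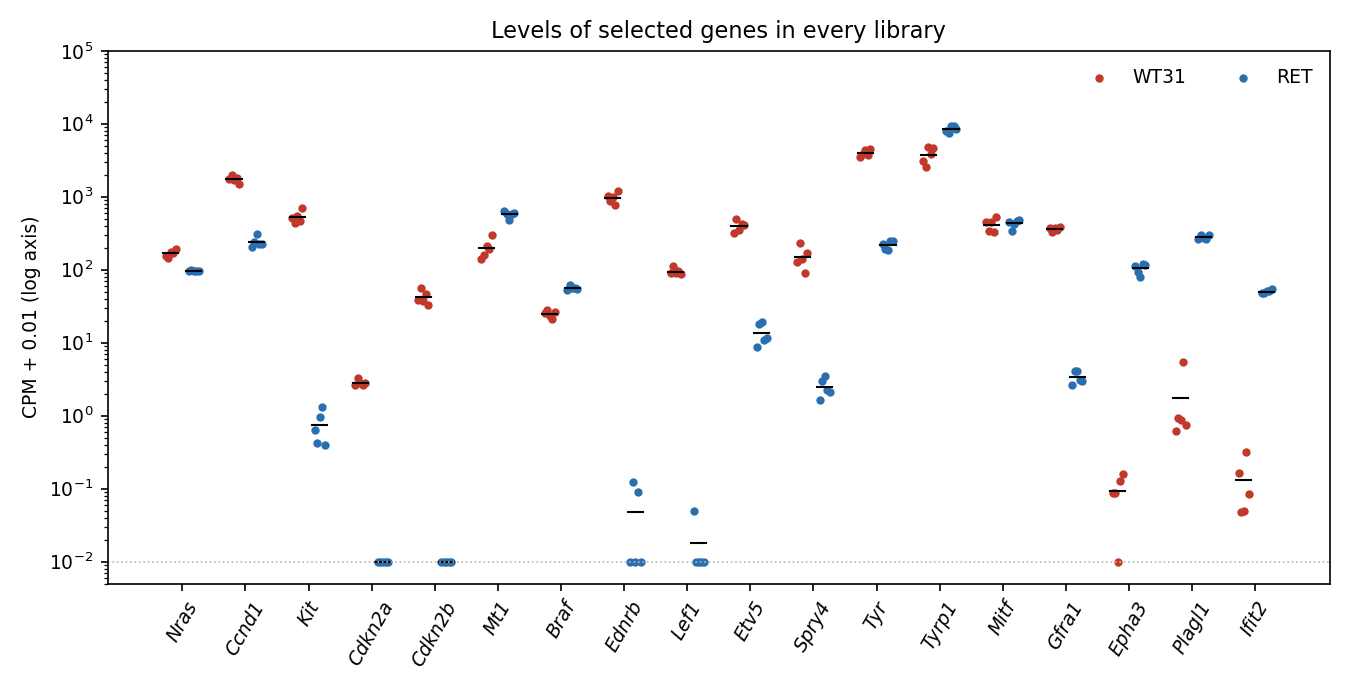
CPM plus 0.01 of 18 genes on a log axis, with 1 point for each of the 5 WT31 libraries (red) and 5 RET libraries (blue) and a black line at the mean. The dotted line marks 0.01, where points have no count, as for Cdkn2a and Cdkn2b in RET.

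Components of RET signalling were more often higher than lower in WT31. Of 19 listed genes 15 passed the filter, 10 were higher and 3 lower in WT31 (8 and 3 by at least 2-fold, 6 and 0 under the stricter filter), 2 did not pass the test, and the median log2 fold change was 1.55. Gfra1, the co-receptor that presents GDNF to RET, stood at 375, 332, 377, 354 and 385 CPM in WT31 and 2.61, 4.05, 4.06, 3.04 and 3.01 CPM in RET and was 109-fold higher in WT31 (log2 fold change 6.77, SE 0.17, adjusted p = 2.56e-21). Gfra4, the co-receptor for persephin, was also higher (8.58 against 1.31 CPM, log2 fold change 2.71, SE 0.16, adjusted p = 5.81e-14). Grb10, an adaptor that binds activated receptor tyrosine kinases and an imprinted gene, stood at 284, 329, 294, 299.6 and 322 CPM in WT31 and was at 8 counts over the 5 RET libraries (log2 fold change 12.36, SE 0.52, adjusted p = 4.10e-17). Dok5, an adaptor that docks on RET, was lower in WT31 (0.662 against 9.56 CPM, log2 fold change -3.94, SE 0.37, adjusted p = 3.54e-10). The ligand Gdnf, chosen after its values were seen, reached 1.96 ± 0.498 CPM in WT31 and 0.0233 ± 0.0346 CPM in RET.

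Genes that ERK switches on, some of which damp it in turn, were mostly higher in WT31. Of 31 listed genes 31 passed the filter, 22 were higher and 2 lower in WT31 (19 and 2 by at least 2-fold, 19 and 0 under the stricter filter), 7 did not pass the test, and the median log2 fold change was 1.21. Etv5, a transcription factor induced by ERK, stood at 321, 497, 353, 416 and 405 CPM in WT31 and 8.66, 17.9, 19.1, 10.9 and 11.7 CPM in RET, 30.1-fold higher (log2 fold change 4.91, SE 0.17, adjusted p = 1.27e-18). Spry4, a feedback inhibitor of receptor signalling, stood at 128, 230.3, 138, 88.8 and 170.4 CPM in WT31 and 1.62, 2.94, 3.43, 2.24 and 2.08 CPM in RET, 59.9-fold higher (log2 fold change 5.90, SE 0.45, adjusted p = 6.27e-12). For neither gene did a WT31 library reach down to a RET library. Etv4 was 29.8-fold higher (109 against 3.63 CPM, adjusted p = 1.77e-15). The phosphatase Dusp6, also an ERK target and chosen after its values were seen, was 2.31-fold higher (247 against 105 CPM, adjusted p = 3.09e-07). Dusp2, a nuclear phosphatase of MAP kinases, was lower in WT31 (0.311 against 11.2 CPM, log2 fold change -5.23, SE 0.48, adjusted p = 2.27e-10). The immediate early genes Fos (2.25 against 2.61 CPM) and Egr1 (3.35 against 4.23 CPM) did not pass the test.

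Receptor tyrosine kinases differed by member. Of 39 listed genes 27 passed the filter, 14 were higher and 7 lower in WT31 (9 and 6 by at least 2-fold, 8 and 5 under the stricter filter), 6 did not pass the test, and the median log2 fold change was 0.56. Kit (ENSMUSG00000005672.12, chr5:75574916-75656722), the receptor for stem cell factor that melanocytes need to survive and migrate, stood at 515, 439.7, 539, 458 and 701 CPM in WT31 and at 0.633, 0.409, 0.946, 1.32 and 0.386 CPM in RET. Every WT31 library lay far above every RET library, and the fitted difference was 9.59 on the log2 scale (SE 0.39, adjusted p = 1.73e-17). Its ligand Kitl ran the other way, at 0.32 ± 0.0942 CPM in WT31 and 6.08 ± 1.14 CPM in RET (log2 fold change -4.20, SE 0.26, adjusted p = 1.06e-13). The WNT5A receptor Ror2 stood at 97.6 ± 11.9 CPM in WT31 with no count in RET, at least 4176-fold higher (adjusted p = 2.13e-18), and Ror1 was higher too (19.9 against 0.0861 CPM, log2 fold change 7.71, SE 0.40, adjusted p = 2.84e-15). The collagen receptor Ddr2 (2.48 against 85.0 CPM, log2 fold change -5.12, SE 0.26, adjusted p = 2.44e-15), Pdgfrb (0.686 against 13.0 CPM, log2 fold change -4.32, SE 0.43, adjusted p = 1.06e-09) and Fgfr3 (1.38 against 8.61 CPM, log2 fold change -2.72, SE 0.45, adjusted p = 6.41e-06) were lower in WT31. Pdgfrb is also a fibroblast marker, and the part of other cells in its level was not tested. Levels of Fgfr3 in RET ranged from 5.04 to 17.5 CPM, the highest in replicate 3, without which the log2 fold change was -2.44. On TPM the log2 fold change of Fgfr3 was smaller, at -2.11 with a pseudocount of 0.1 and -1.47 with 1.

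Transcription factors and receptors of the melanocyte lineage were more often higher than lower in WT31. Of 33 listed genes 30 passed the filter, 21 were higher and 4 lower in WT31 (17 and 2 by at least 2-fold, 12 and 4 under the stricter filter), 5 did not pass the test, and the median log2 fold change was 1.30. Ednrb (ENSMUSG00000022122.15, chr14:103814625-103844402), the receptor for endothelin 3 that guides melanoblasts, stood at 1028, 884, 983, 779 and 1201 CPM in the WT31 libraries, while the 5 RET libraries held 5 counts together (log2 fold change 14.57, SE 0.64, adjusted p = 1.19e-16). It was at 0.0959 CPM in B16F10 luc2, 0 in D4M and 0.187 in HCmel12. Lef1, a transcription factor through which WNT signals act, stood at 88.8, 112, 89.1, 96.0 and 86.2 CPM in WT31 and at a single count in RET, a ratio of 12120.0 (95% counting interval 2175 to 478754) with an adjusted p of 8.19e-17. Prrx1, a mesenchymal homeobox factor, stood at 151 ± 8.82 CPM in WT31 and held 8 counts in RET (log2 fold change 11.11, SE 0.38, adjusted p = 8.21e-19). The neural crest factor Foxd3, chosen after its values were seen, was at 38.8 ± 5.51 CPM in WT31 and at 0 in every RET library. Mitf, the master regulator of melanocytes, did not pass the test (416 against 434 CPM, log2 fold change -0.073, 95% confidence interval -0.33 to 0.19), and its libraries overlapped. Ets1 (193 against 466 CPM, log2 fold change -1.29, SE 0.082, adjusted p = 2.00e-13), Tfap2a (59.3 against 100.5 CPM, log2 fold change -0.77, SE 0.097, adjusted p = 8.83e-08) and Tfe3 (51.0 against 60.3 CPM, log2 fold change -0.24, SE 0.062, adjusted p = 0.0011) were lower in WT31. The small difference of Tfe3 did not pass the test on TPM (adjusted p between 2.54e-04 and 0.18 over the alternatives).

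Pigmentation genes changed in both directions, although Mitf itself was close. Of 26 listed genes 26 passed the filter, 15 were higher and 10 lower in WT31 (10 and 4 by at least 2-fold), 1 did not pass the test, and the median log2 fold change was 0.66. Trpm1, a melanocyte channel known as melastatin, stood at 1734, 1649, 2686, 1743 and 3246 CPM in WT31 and 59.7, 45.8, 55.3, 70.0 and 53.9 CPM in RET, 37.7-fold higher (log2 fold change 5.24, SE 0.25, adjusted p = 4.05e-16). Oca2, a melanosomal transporter mutated in albinism, was higher (113 against 2.14 CPM, log2 fold change 5.70, SE 0.24, adjusted p = 6.22e-17), as was the cystine transporter Slc7a11 (252 against 9.25 CPM, log2 fold change 4.93, SE 0.31, adjusted p = 1.56e-13). Tyrp1, an enzyme that stabilises tyrosinase, stood at 3055, 2554, 4733, 3837 and 4657 CPM in WT31 and 7880.4, 7502, 9283, 9206 and 8383 CPM in RET and was 2.3-fold lower in WT31 (log2 fold change -1.20, SE 0.22, adjusted p = 2.76e-05). The libraries did not overlap, but Tyrp1 was not called by edgeR's quasi-likelihood test (adjusted p = 0.060) or on TPM with a pseudocount of 0.1 (adjusted p = 0.052), and its adjusted p lay between 4.84e-09 and 0.06 over all alternatives that gave one. Apoe, a lipid carrier used in melanosomes (17.5 against 223 CPM, log2 fold change -3.65, SE 0.15, adjusted p = 1.50e-17), and Tspan10 (82.6 against 196 CPM, log2 fold change -1.34, SE 0.21, adjusted p = 3.75e-06) were lower in WT31. Tyr, the rate-limiting enzyme of melanin synthesis, was chosen after its values were seen and stood at 3541, 3821, 4318, 3739 and 4489.7 CPM in WT31 and 225, 195, 186, 244 and 244 CPM in RET (log2 fold change 4.19, SE 0.16, adjusted p = 4.68e-18).

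Promoters of 3 pigmentation genes are printed because their genes moved in different directions. The windows run from 250 bases before to 50 bases after the start site (RefSeq, GRCm38.p6, 5′ to 3′ on the strand of the gene), and capitals mark the M-box letters TCATGTG on either strand, to which Mitf is known to bind.
Tyr (chr7:87493463-87493762, minus strand): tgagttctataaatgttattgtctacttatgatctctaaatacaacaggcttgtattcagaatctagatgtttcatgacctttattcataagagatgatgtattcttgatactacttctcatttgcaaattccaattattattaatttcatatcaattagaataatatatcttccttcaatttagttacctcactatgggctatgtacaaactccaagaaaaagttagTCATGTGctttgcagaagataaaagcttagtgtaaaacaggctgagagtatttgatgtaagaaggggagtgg
Trpm1 (chr7:64153585-64153884, plus strand): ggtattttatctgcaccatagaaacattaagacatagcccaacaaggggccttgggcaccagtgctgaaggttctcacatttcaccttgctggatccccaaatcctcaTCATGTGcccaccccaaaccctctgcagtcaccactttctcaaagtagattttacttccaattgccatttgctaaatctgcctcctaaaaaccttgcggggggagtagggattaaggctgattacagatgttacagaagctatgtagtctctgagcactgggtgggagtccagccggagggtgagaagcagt
Tyrp1 (chr4:80833963-80834262, plus strand): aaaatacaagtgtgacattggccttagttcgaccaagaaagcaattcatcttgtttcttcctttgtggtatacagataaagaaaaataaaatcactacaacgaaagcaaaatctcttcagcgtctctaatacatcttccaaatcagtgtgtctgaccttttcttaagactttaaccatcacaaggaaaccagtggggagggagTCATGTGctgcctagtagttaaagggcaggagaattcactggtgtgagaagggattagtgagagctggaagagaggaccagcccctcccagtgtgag
These letters occurred in windows of 8 of the 20 pigmentation genes that have one, namely Dct, Mc1r, Slc24a5, Slc7a11, Trpm1, Tspan10, Tyr and Tyrp1, of which 6 were higher and 2 lower in WT31. Dct, Mc1r and Slc24a5 are named here for their letters, after their values were seen. By window, the letters occurred in 8 of 24 windows (33.3%) of pigmentation genes and in 3.77% of all 32851 windows. Over all tested genes with the letters, 123 were higher, 123 lower and 51 not called. A match describes the sequence only.

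WNT pathway genes separated the lines by some of the widest margins in the data. Of 56 listed genes 38 passed the filter, 23 were higher and 8 lower in WT31 (20 and 5 by at least 2-fold, 11 and 5 under the stricter filter), 7 did not pass the test, and the median log2 fold change was 1.05. Nkd1, an intracellular antagonist that WNT signalling itself induces, stood at 529, 589, 629.5, 663 and 740.1 CPM in WT31 and held 7 counts over the RET libraries (log2 fold change 13.31, SE 0.53, adjusted p = 1.22e-17). Its relative Nkd2 stood at 168, 168, 187, 195 and 243 CPM in WT31 and held no count in RET, at least 8245-fold higher (adjusted p = 2.98e-14). Further targets and secreted inhibitors of the pathway, chosen after their values were seen, were Axin2 (140.4 against 8.87 CPM, log2 fold change 3.98), Tcf7 (192 against 4.65 CPM, 5.38), Apcdd1 (256 against 0.0626 CPM, 11.86) and Wif1 (67.3 against 0.0619 CPM, 9.81). Frzb, a secreted WNT antagonist, was lower in WT31 (1.0 against 21.5 CPM, log2 fold change -4.42, SE 0.20, adjusted p = 2.79e-16), and so were the receptor genes Lrp6 (69.9 against 182 CPM, log2 fold change -1.38, SE 0.076, adjusted p = 1.02e-14) and Fzd4 (5.81 against 11.7 CPM, log2 fold change -1.07, SE 0.14, adjusted p = 2.57e-07). Ctnnb1, which encodes beta-catenin, did not pass the test, at 1271 ± 127 CPM in WT31 and 1271 ± 40.9 CPM in RET. Lrp6 lies on chromosome 6, most genes of which were lower in WT31. Of the 3 tested WNT genes there, 1 was lower and 1 higher.

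TGF-beta and BMP genes were mostly higher in WT31. Of 53 listed genes 44 passed the filter, 29 were higher and 5 lower in WT31 (20 and 2 by at least 2-fold, 23 and 3 under the stricter filter), 10 did not pass the test, and the median log2 fold change was 0.86. The ligand Bmp7 (ENSMUSG00000008999.7, chr2:172868012-172940321) stood at 582, 668, 619, 599 and 565 CPM in WT31 and held 5 counts over the RET libraries (log2 fold change 13.73, SE 0.48, adjusted p = 1.18e-18). Bmp2 was at 13.6 ± 2.98 CPM in WT31 and held 8 counts in RET (log2 fold change 7.69, SE 0.48, adjusted p = 9.99e-14). Follistatin (Fst), which binds activins and BMPs, was at 21.5 ± 6.36 CPM in WT31 and at a single count in RET, a ratio of 2771 (95% counting interval 497 to 109472) with an adjusted p of 1.10e-11. Its relative Fstl3 ran the other way (0.502 against 13.2 CPM, log2 fold change -4.73, SE 0.24, adjusted p = 1.47e-15), with 46.7% of its 31-base sequences shared, mostly with the adjacent gene Prss57. The BMP target genes Id1 (34.6 against 2.59 CPM) and Id3 (164 against 22.5 CPM), chosen after their values were seen, were called higher in WT31. Acvr2b (3.57 against 5.27 CPM) and Eng (259 against 325 CPM), receptors of the family, were lower by 1.48-fold and 1.25-fold.

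**Figure D3:**
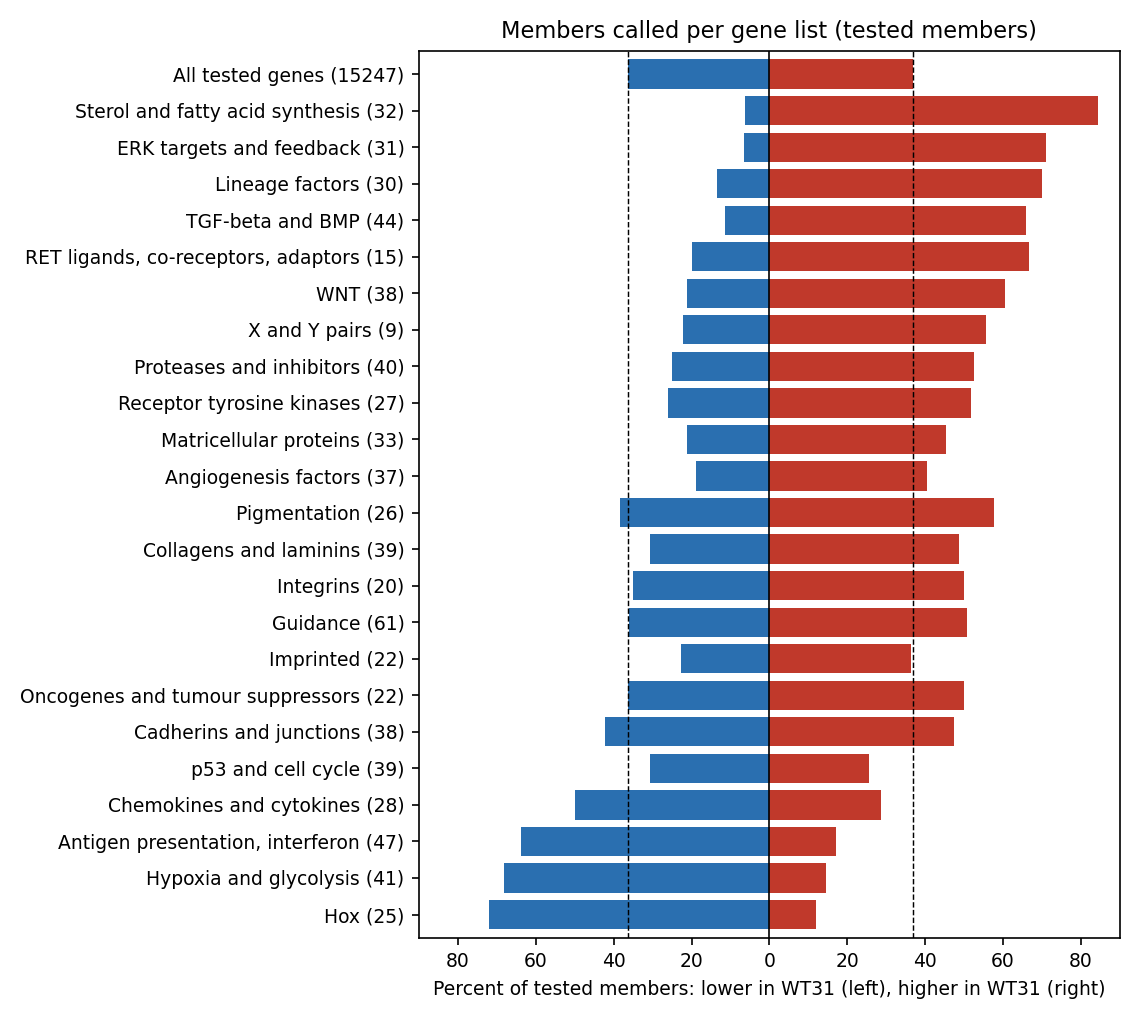
Bars give the percentage of tested members of each list that were called lower (left, blue) or higher (right, red) in WT31, with the number of tested members in brackets and the shares over all tested genes as dashed lines. By calls of any fold, as plotted, sterol and fatty acid synthesis lies farthest to the side of WT31, at 27 higher and 2 lower of 32 (15 and 1 by at least 2-fold), and Hox genes farthest to the side of RET, at 3 higher and 18 lower of 25. The Hox counts were 3 and 17 by at least 2-fold and 1 and 4 under the stricter filter.

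Matrix genes showed different collagens and laminins in each line. Of 44 listed genes 39 passed the filter, 19 were higher and 12 lower in WT31 (15 and 10 by at least 2-fold, 14 and 7 under the stricter filter), 8 did not pass the test, and the median log2 fold change was 0.45. Lama1, a laminin chain of early basement membranes, stood at 26.9 ± 3.46 CPM in WT31 and held no count in RET, at least 1153-fold higher (adjusted p = 7.31e-19). Col11a1 (41.6 against 0.38 CPM, log2 fold change 6.91, SE 0.40, adjusted p = 2.14e-14) and Col4a4 (6.3 against 0.147 CPM, log2 fold change 5.27, SE 0.40, adjusted p = 6.56e-12) were higher as well. Col4a5, another chain of basement membrane collagen, was at 28.4 ± 6.36 CPM in RET with 3 counts in WT31, a ratio of RET to WT31 of 1245 (95% counting interval 426 to 6038) and an adjusted p of 1.03e-13. Col1a1, the main fibrillar collagen, stood at 0.987, 0.532, 1.63, 1.15 and 0.443 CPM in WT31 and 11.1, 16.1, 81.0, 10.2 and 35.7 CPM in RET (log2 fold change -4.68, SE 0.87, adjusted p = 2.89e-05). All RET libraries lay above all WT31 libraries, with RET replicate 3 far above the rest, and without that library the log2 fold change was -4.22. Col1a2 was lower in WT31 too (0.904 against 6.0 CPM, log2 fold change -2.91, SE 0.35, adjusted p = 3.45e-08). Both are fibroblast markers that move with the sums given above, and the part of other cells was not tested. Col1a2 also lies on chromosome 6, most genes of which were lower in WT31.

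Matricellular proteins, which sit in the matrix and signal to cells, were higher in WT31 in 15 of 33 tested and lower in 7 (12 and 4 by at least 2-fold, 8 and 5 under the stricter filter), with 11 not called and a median log2 fold change of 0.33 over the tested of 37 listed genes. The share called, 66.7%, was below the 73.2% of all tested genes. The galectin Lgals3 (16.9 against 0.172 CPM, log2 fold change 6.52, SE 0.79, adjusted p = 3.98e-08) and Tgfbi (5.52 against 0.155 CPM, log2 fold change 5.10, SE 0.53, adjusted p = 3.14e-09) were higher in WT31. Fibrillin 2 (Fbn2) was at 11.4 ± 2.3 CPM in WT31 and held 1.75 estimated counts in RET, rounded to 2 for a ratio of 733 (95% counting interval 203 to 6059.8) (adjusted p = 6.99e-11). Thbs3 (0.29 against 6.08 CPM, log2 fold change -4.44, SE 0.33, adjusted p = 4.90e-12), Ccn4 (5.87 against 16.2 CPM, log2 fold change -1.58, SE 0.33, adjusted p = 1.15e-04) and Lgals3bp (38.2 against 110.1 CPM, log2 fold change -1.55, SE 0.16, adjusted p = 3.99e-09) were lower. Sparc, a collagen-binding protein chosen after its values were seen, was at 3507 ± 258 CPM in WT31 and 763 ± 112 CPM in RET. Fn1 did not pass the test (243 against 264 CPM).

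Integrins, the receptors that anchor cells to the matrix, were called in both directions. Of 26 listed genes 20 passed the filter, 10 were higher and 7 lower in WT31 (6 and 5 by at least 2-fold, 9 and 4 under the stricter filter), 3 did not pass the test, and the median log2 fold change was 0.37. Itga4, which pairs with beta 1 to bind VCAM1 and fibronectin, stood at 725, 556, 554, 554 and 422 CPM in WT31 and 88.4, 123, 137, 99.3 and 110.4 CPM in RET, 5.03-fold higher (log2 fold change 2.33, SE 0.14, adjusted p = 2.97e-14). Itga8 (88.6 against 0.957 CPM, log2 fold change 6.67, SE 0.50, adjusted p = 5.52e-12) and the collagen receptor chain Itga2 (7.28 against 0.426 CPM, log2 fold change 4.06, SE 0.43, adjusted p = 4.03e-09) were higher too. Itgb4, the laminin receptor of hemidesmosomes, stood at 3.95, 2.13, 2.68, 1.89 and 1.77 CPM in WT31 and 49.9, 55.1, 56.7, 49.6 and 48.0 CPM in RET, 21.7-fold lower in WT31 (log2 fold change -4.44, SE 0.15, adjusted p = 8.75e-19). The libraries did not overlap. Itgb5 (2.1 against 51.3 CPM, log2 fold change -4.73, SE 0.28, adjusted p = 3.08e-14) and Itgb3 (6.04 against 17.8 CPM, log2 fold change -1.57, SE 0.17, adjusted p = 8.01e-09) were lower as well.

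Proteases and their inhibitors included several with no or almost no counts in one line. Of 46 listed genes 40 passed the filter, 21 were higher and 10 lower in WT31 (15 and 7 by at least 2-fold, 18 and 5 under the stricter filter), 9 did not pass the test, and the median log2 fold change was 0.49. Mmp16, a membrane-bound metalloprotease, stood at 24.9 ± 0.704 CPM in WT31 with no count in RET, at least 1067-fold higher (adjusted p = 4.29e-17). The plasminogen activator Plat (142 against 3.14 CPM, log2 fold change 5.48, SE 0.27, adjusted p = 1.39e-15) and its inhibitor Serpine2 (174 against 2.51 CPM, log2 fold change 6.22, SE 0.37, adjusted p = 5.70e-14) were both higher in WT31. Plaur, the receptor for urokinase, was lower (1.12 against 18.6 CPM, log2 fold change -4.14, SE 0.42, adjusted p = 1.43e-09), as was the metalloprotease Adam19 (0.0917 against 24.8 CPM, log2 fold change -8.18, SE 0.45, adjusted p = 7.67e-15). Timp3, a matrix-bound inhibitor of metalloproteases, stood at 0.455, 0.038, 0.233, 0.231 and 0.185 CPM in WT31 and 29.7, 30.6, 35.0, 30.0 and 25.6 CPM in RET (log2 fold change -7.21, SE 0.53, adjusted p = 3.45e-12), and no WT31 library came near a RET library. Of its 31-base sequences 21.9% are shared, mostly with Syn3, the gene it lies in.

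Cadherins and other junction proteins were split between the lines. Of 50 listed genes 38 passed the filter, 18 were higher and 16 lower in WT31 (15 and 14 by at least 2-fold, 12 and 8 under the stricter filter), 4 did not pass the test, and the median log2 fold change was 0.11. Cdh11, a mesenchymal cadherin, was at 12.4 ± 3.84 CPM in WT31 with no count in RET, at least 530.5-fold higher (adjusted p = 1.88e-13). Cdh3 (17.004 against 0.039 CPM, log2 fold change 8.47, SE 0.58, adjusted p = 9.13e-13) and Cdh6 (22.5 against 0.333 CPM, log2 fold change 6.46, SE 0.60, adjusted p = 3.82e-10) were higher too. Cdh13, a cadherin held in the membrane by a lipid anchor, was at 27.2 ± 4.18 CPM in RET and held 5 counts in WT31 (log2 fold change -9.05, SE 0.68, adjusted p = 5.94e-12). The adhesion molecule Alcam was lower in WT31 (3.5 against 20.3 CPM, log2 fold change -2.54, SE 0.28, adjusted p = 9.33e-09). N-cadherin (Cdh2), chosen after its values were seen, was called with a small difference (151 against 193 CPM, log2 fold change -0.37).

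Guidance molecules, which steer axons and vessels, formed the longest list. Of 65 listed genes 61 passed the filter, 31 were higher and 22 lower in WT31 (25 and 19 by at least 2-fold, 19 and 8 under the stricter filter), 8 did not pass the test, and the median log2 fold change was 0.42. The ephrin receptor Epha3 stood at 113, 92.1, 80.5, 119 and 115 CPM in the RET libraries and held 11 counts over the WT31 libraries (log2 fold change -10.27, SE 0.79, adjusted p = 8.56e-12). Epha7 (0.0538 against 11.5 CPM, log2 fold change -7.76, SE 0.48, adjusted p = 1.09e-13) and Ephb6 (0.0833 against 9.12 CPM, log2 fold change -6.54, SE 0.32, adjusted p = 1.18e-15) were also lower in WT31. Ephb6 lies on chromosome 6, where 5 of the 6 tested guidance genes were lower and 0 higher. The 55 tested guidance genes elsewhere gave 17 lower and 31 higher. Tenm2 (9.59 against 0.0535 CPM, log2 fold change 7.27, SE 0.57, adjusted p = 1.12e-11), the Slit receptor Robo2 (23.5 against 0.289 CPM, log2 fold change 6.33, SE 0.34, adjusted p = 6.04e-15) and the ephrin ligand Efnb2 (6.96 against 0.11 CPM, log2 fold change 5.87, SE 0.56, adjusted p = 5.16e-10) were higher.

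Among angiogenesis factors, those that act on blood vessels, Vegfa was close in both lines while Ptn and Angpt2 were far apart. Of 42 listed genes 37 passed the filter, 15 were higher and 7 lower in WT31 (12 and 6 by at least 2-fold, 11 and 3 under the stricter filter), 15 did not pass the test, and the median log2 fold change was 0.33. With 59.5% of tested members called, the list lay below the 73.2% of all tested genes. Vegfa, the main growth factor of blood vessels, stood at 25.5, 26.3, 22.1, 23.4 and 18.7 CPM in WT31 and 27.0, 24.4, 20.1, 23.7 and 23.6 CPM in RET and did not pass the test (log2 fold change -0.04, 95% confidence interval -0.44 to 0.36). Pleiotrophin (Ptn) was at 195 ± 22.6 CPM in WT31 and held 3 counts in RET, a ratio of 8368 (95% counting interval 2863 to 40579) with an adjusted p of 1.48e-13. Adrenomedullin (Adm), a peptide that dilates vessels (34.0 against 0.0939 CPM, log2 fold change 8.32, SE 0.53, adjusted p = 1.69e-13), and the angiogenesis inhibitor Serpinf1 (537 against 11.2 CPM, log2 fold change 5.75, SE 0.21, adjusted p = 2.11e-18) were higher in WT31 as well. Angpt2, which loosens vessel walls, stood at 0.797, 0.798, 0.815, 0.64 and 0.517 CPM in WT31 and 44.6, 43.9, 45.2, 46.7 and 44.5 CPM in RET, 62.4-fold lower in WT31 (log2 fold change -5.96, SE 0.34, adjusted p = 2.38e-14). Nrp2, a co-receptor for VEGF and semaphorins, was lower too (7.29 against 374 CPM, log2 fold change -5.87, SE 0.25, adjusted p = 6.13e-17).

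Interferon response genes were mostly lower in WT31. The list of antigen presentation and interferon genes had 54 members, of which 47 passed the filter, 8 were higher and 30 lower in WT31 (3 and 26 by at least 2-fold, 7 and 11 under the stricter filter), and 9 did not pass the test, with a median log2 fold change of -1.74. Split after the values were seen, the interferon response members gave 20 lower, 2 higher and 3 not called of 25 tested (8 lower and 2 higher of 12 under the stricter filter, median -2.94), and the class I and processing members 8 lower, 5 higher and 6 not called of 19 (3 lower and 5 higher of 10 under the stricter filter, median -0.17). Ifit2, an interferon-induced inhibitor of translation of viral RNA, stood at 47.5, 48.3, 50.3, 50.2 and 54.0 CPM in RET and 0.152, 0.038, 0.0388, 0.308 and 0.0739 CPM in WT31 (log2 fold change -8.81, SE 0.34, adjusted p = 6.26e-18). The groups lay far apart. Its relative Ifit1 was at 16.5 ± 3.82 CPM in RET with 9 counts in WT31 (log2 fold change -7.89, SE 0.86, adjusted p = 5.93e-09), and Oas1a was at 7.2 ± 2.69 CPM in RET with 2 counts in WT31, a ratio of RET to WT31 of 472 (95% counting interval 130.3 to 3902), with 68.8% of its 31-base sequences shared with other Oas1 genes. The RNA sensor Ifih1, chosen after its values were seen, stood at 0.0609 ± 0.0636 CPM in WT31 and 11.9 ± 2.09 CPM in RET.

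Not every member followed. Ifitm3, a membrane protein that blocks viral entry, was higher in WT31 (80.7 against 30.6 CPM, log2 fold change 1.43, SE 0.19, adjusted p = 3.09e-07), as was the transcription factor Stat2, chosen after its values were seen (10.4 against 6.51 CPM). Erap1 and Tapbp, which trim and load peptides onto class I molecules, were higher by 1.97-fold and 1.8-fold. Irf1 (8.2 against 8.77 CPM) and the class I gene H2-K1 (7.29 against 6.45 CPM) did not pass the test.

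Promoters of 3 interferon response genes that were lower in WT31 are printed in the same form, Isg15 and Gbp2 chosen after their values were seen, with capitals for the letters GAAA, any 2 bases and GAAA on either strand, the core of the interferon-stimulated response element (ISRE). Where matches overlap or adjoin, the capitals run together.
Ifit1 (chr19:34640639-34640938, plus strand): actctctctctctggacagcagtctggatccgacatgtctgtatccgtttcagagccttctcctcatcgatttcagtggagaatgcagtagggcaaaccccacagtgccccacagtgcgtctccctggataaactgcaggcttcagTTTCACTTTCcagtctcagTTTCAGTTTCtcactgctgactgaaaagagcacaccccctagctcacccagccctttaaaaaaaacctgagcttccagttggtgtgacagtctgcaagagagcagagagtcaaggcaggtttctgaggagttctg
Isg15 (chr4:156200769-156201068, minus strand): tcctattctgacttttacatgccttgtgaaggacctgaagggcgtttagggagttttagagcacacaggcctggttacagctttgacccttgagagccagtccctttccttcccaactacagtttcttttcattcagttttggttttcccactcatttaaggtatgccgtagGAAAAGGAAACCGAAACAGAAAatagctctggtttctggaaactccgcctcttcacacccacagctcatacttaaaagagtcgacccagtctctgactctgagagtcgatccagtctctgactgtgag
Gbp2 (chr3:142620413-142620712, plus strand): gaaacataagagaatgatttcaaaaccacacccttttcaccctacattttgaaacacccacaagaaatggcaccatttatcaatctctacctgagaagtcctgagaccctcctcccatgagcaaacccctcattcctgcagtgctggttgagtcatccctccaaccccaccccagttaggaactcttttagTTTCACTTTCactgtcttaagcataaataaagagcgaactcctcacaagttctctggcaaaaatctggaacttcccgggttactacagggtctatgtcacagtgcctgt
The letters occurred in 14 of 25 windows (56.0%) of interferon response genes, belonging to 14 of the 21 genes that have one, and in 3.44% of all 32851 windows. Over all tested genes with the letters, 164 were lower, 137 higher and 96 not called. Of the 14 interferon response genes 11 were lower, 2 higher and 1 not called, the last 3 being Stat2, Ifitm3 and Ifitm2. The printed genes were at 0.0689 against 16.5 CPM (Ifit1), 0.273 against 5.55 CPM (Isg15) and 0.718 against 7.1 CPM (Gbp2) in WT31 and RET.

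**Figure D4:**
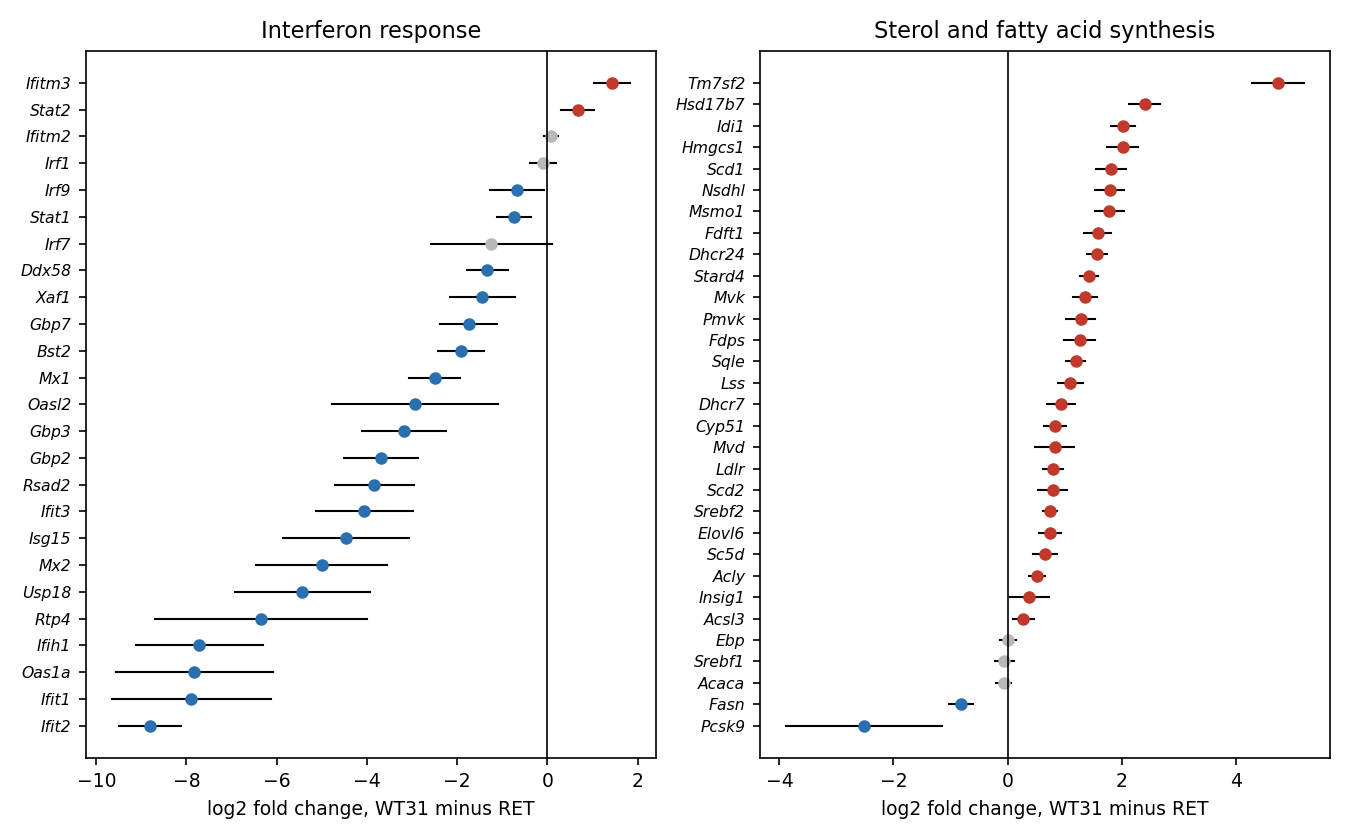
Fitted log2 fold changes (WT31 minus RET) of the tested interferon response genes (left) and of 31 genes of sterol and fatty acid synthesis (right), with 95% confidence intervals as lines. Red points were called higher, blue points lower, and grey points not called, so that the left panel lies mostly below 0 and the right panel mostly above it.

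Chemokines and cytokines were often too low to test. Of 52 listed genes 28 passed the filter, 8 were higher and 14 lower in WT31 (7 and 11 by at least 2-fold, 2 and 7 under the stricter filter), 6 did not pass the test, and the median log2 fold change was -0.37. Cxcl15 was at 52.8 ± 18.9 CPM in WT31 with a single count in RET, a ratio of 6784 (95% counting interval 1217 to 267989) and an adjusted p of 1.60e-12. Il33, an alarmin of barrier cells, stood at 214, 253, 221, 281 and 134 CPM in WT31 and 0.435, 0.892, 2.4, 1.04 and 0.849 CPM in RET (log2 fold change 7.77, SE 0.56, adjusted p = 1.97e-12), with no overlap. Ccl5 (0.237 against 5.59 CPM, log2 fold change -4.58, SE 0.42, adjusted p = 3.08e-10), which attracts T cells, and Cx3cl1 (0.96 against 6.53 CPM, log2 fold change -2.78, SE 0.27, adjusted p = 5.42e-10) were lower in WT31.

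Glycolysis and hypoxia genes were mostly lower in WT31. Of 41 listed genes 41 passed the filter, 6 were higher and 28 lower in WT31 (3 and 16 by at least 2-fold), 7 did not pass the test, and the median log2 fold change was -0.73. Of 17 glycolytic enzymes, grouped after the values were seen, 14 were lower and 1 was higher (7 and 1 by at least 2-fold). Slc2a3, a glucose transporter, stood at 0, 0.154, 0.201, 0.158 and 0.465 CPM in WT31 and 55.4, 60.1, 68.9, 53.2 and 55.0 CPM in RET (log2 fold change -8.66, SE 0.65, adjusted p = 5.60e-12), and without WT31 replicate 1 its log2 fold change was -7.93. Pfkp, an isoform of the enzyme that commits glucose to glycolysis, was 7.38-fold lower in WT31 (18.9 against 138 CPM, adjusted p = 1.52e-17), and the carbonic anhydrase Car12 was lower as well (0.0543 against 6.82 CPM, log2 fold change -7.15, SE 0.42, adjusted p = 2.98e-14). Aldoc (24.1 against 3.17 CPM, log2 fold change 2.92, SE 0.39, adjusted p = 2.27e-07) and the hypoxia-inducible factor Epas1 (61.1 against 8.54 CPM, log2 fold change 2.82, SE 0.16, adjusted p = 1.08e-14) were higher, while Hif1a did not pass the test (177 against 192 CPM). Of the 41 members 6 lie on chromosome 6, among them Gapdh and Tpi1, named after their values were seen, and all 6 were lower. The other 35 gave 22 lower and 6 higher, with a median log2 fold change of -0.54.

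Genes of sterol and fatty acid synthesis were mostly higher in WT31, many of them by less than 2-fold. By calls of any fold, the list had the largest share of higher members among the 23 lists. Counting only calls with a fold of at least 2 it did not, with 15 of 32 against 19 of 31 ERK output and 17 of 30 lineage genes. Of 32 listed genes 32 passed the filter, 27 were higher and 2 lower in WT31 (15 and 1 by at least 2-fold, 27 and 1 under the stricter filter), 3 did not pass the test, and the median log2 fold change was 0.93. Tm7sf2, a sterol reductase, stood at 62.1, 76.2, 69.8, 63.5 and 64.3 CPM in WT31 and 2.71, 1.98, 2.44, 2.92 and 2.51 CPM in RET, 26.7-fold higher (log2 fold change 4.74, SE 0.22, adjusted p = 3.54e-16). Hsd17b7 (63.5 against 12.0 CPM, log2 fold change 2.40, SE 0.13, adjusted p = 1.06e-14) and Idi1 (252 against 61.5 CPM, log2 fold change 2.02, SE 0.10, adjusted p = 1.90e-15), further enzymes on the way to cholesterol, were higher by 5.3-fold and 4.05-fold. Fasn, which makes palmitate, was lower in WT31 (255 against 448 CPM, log2 fold change -0.81, SE 0.10, adjusted p = 6.53e-08). The sterol response element, searched on both strands as ATCAC followed at once by CCCAC, was in none of the windows of the 22 members that have one and in 0.0913% of all windows, which says only that these letters are not there.

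Cell cycle and p53 target genes were split between the lines. Of 40 listed genes 39 passed the filter, 10 were higher and 12 lower in WT31 (5 and 4 by at least 2-fold), 17 did not pass the test, and the median log2 fold change was -0.029. With 56.4% of tested members called, the list lay below the 73.2% of all tested genes. Plk2 (94.2 against 13.3 CPM, log2 fold change 2.83, SE 0.12, adjusted p = 7.04e-17) and Gadd45a (38.6 against 7.98 CPM, log2 fold change 2.24, SE 0.20, adjusted p = 1.59e-10), both induced by stress, were higher in WT31. Tigar, which slows glycolysis (27.0 against 74.7 CPM, log2 fold change -1.47, SE 0.069, adjusted p = 3.86e-16), and the cell death effector Bax (111 against 199 CPM, log2 fold change -0.84, SE 0.079, adjusted p = 3.82e-10) were lower. Cdkn1a (360.0 against 306 CPM) and the proliferation gene Mki67 (315 against 378 CPM) did not pass the test. Of the tested members 4 lie on chromosome 6, most genes of which were lower in WT31. Tigar and Gadd45a are among these 4, of which 3 were lower and 1, Gadd45a, was higher.

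Hox genes, which carry positional identity, were mostly lower in WT31, many of them from low levels. Of 39 listed genes 25 passed the filter, 3 were higher and 18 lower in WT31 (3 and 17 by at least 2-fold, 1 and 4 under the stricter filter), 4 did not pass the test, and the median log2 fold change was -1.77. Hoxa10 stood at 0.683, 1.03, 1.13, 1.38 and 1.48 CPM in WT31 and 35.7, 32.1, 32.4, 31.4 and 34.5 CPM in RET (log2 fold change -4.89, SE 0.24, adjusted p = 1.11e-15), and Hoxa11 was lower as well (0.415 against 10.4 CPM, log2 fold change -4.80, SE 0.25, adjusted p = 4.71e-15). Hoxd13, the most posterior gene of its cluster, was at 10.1 ± 0.314 CPM in RET and held 2 counts in WT31, a ratio of RET to WT31 of 663 (95% counting interval 183 to 5483) with an adjusted p of 9.75e-17. Hoxb9 stood at 217, 198, 194, 189 and 141 CPM in WT31 and 2.17, 4.68, 6.86, 1.28 and 1.85 CPM in RET and was higher in WT31 (log2 fold change 6.05, SE 0.39, adjusted p = 2.34e-13). In a fit of only the 10 libraries, in which fewer genes pass the filter, 11 Hox genes were lower. The Hoxa genes lie on chromosome 6, and the 15 tested Hox genes elsewhere gave 10 lower and 2 higher.

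Imprinted genes, of which one parental copy is silent, were called in 13 of 22 tested, 8 higher and 5 lower (6 and 4 by at least 2-fold, 4 and 4 under the stricter filter), of 37 listed. The share called, 59.1%, was below the 73.2% of all tested genes. Mest (406 against 99.6 CPM, log2 fold change 2.01, SE 0.21, adjusted p = 2.61e-09) and Zrsr1 (23.5 against 0.294 CPM, log2 fold change 6.30, SE 0.32, adjusted p = 2.39e-15) were higher in WT31, besides Grb10. Plagl1, a zinc finger factor, stood at 266, 303, 271, 262 and 299 CPM in RET and 0.607, 0.912, 0.854, 5.42 and 0.739 CPM in WT31 (log2 fold change -7.92, SE 0.30, adjusted p = 6.43e-18). WT31 replicate 4 was the highest of its line, and without it the log2 fold change was -8.47. Peg10 (82.9 against 227 CPM, log2 fold change -1.54, SE 0.20, adjusted p = 1.98e-07) and Copg2 (78.0 against 159 CPM, log2 fold change -1.02, SE 0.058, adjusted p = 2.08e-14), were lower. Of the 4 tested imprinted genes on chromosome 6, Copg2, Mest, Peg10 and Sgce, the last named after its values were seen, 3 were lower and 1, Mest, was higher.

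Genes of the Y chromosome were measured in WT31 and at or near zero in RET. Of 14 listed genes of the sex chromosomes 9 passed the filter, of which 5 were higher and 2 lower in WT31 (4 and 0 by at least 2-fold, 1 and 2 under the stricter filter). Ddx3y stood at 68.4, 63.8, 67.9, 67.4 and 71.8 CPM in WT31 and at 0 in every RET library, at least 2906-fold higher (adjusted p = 5.54e-20). Eif2s3y was at 38.9 ± 1.42 CPM with no count in RET, and Uty at 20.9 ± 2.18 CPM with 2 counts in RET, a ratio of 1347 (95% counting interval 372 to 11126). Xist was near zero in both lines (0.0611 against 0.0416 CPM). The X-linked partners Eif2s3x (282 against 417 CPM, log2 fold change -0.57, SE 0.054, adjusted p = 4.72e-10) and Ddx3x (404 against 497 CPM, log2 fold change -0.30, SE 0.089, adjusted p = 0.0042) were lower in WT31. The call of Ddx3x was lost on TPM (adjusted p between 0.0011 and 0.19 over the alternatives), and of the 31-base sequences of Eif2s3x 35.6% are shared.

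Across all tested genes, the 10 highest fold changes among called genes with a mean of at least 10 CPM in the higher line belonged to signalling, neural and adhesion genes and a histone gene. Npy, a neuropeptide, stood at 232, 224, 259, 197 and 369.6 CPM in WT31 with no count in RET, at least 11013-fold higher. The sphingosine 1-phosphate receptor S1pr3 was at 208 ± 73.1 CPM with no count in RET, at least 8940.4-fold higher, and the protocadherin Pcdhgc3 was at 654 ± 38.4 CPM with no count in RET, at least 28009.7-fold higher. Pcdhgc3 shares 66.2% of its 31-base sequences with the genes of its cluster, so its assignment is uncertain. Armh4 (1136 ± 266 CPM, 6 counts in RET) and the myelin-associated Gpm6b (502 ± 43.8 CPM, 3 counts in RET, a ratio of 21518 (95% counting interval 7363 to 104345)) completed this group with Ednrb, Bmp7, Nkd1, Nkd2 and the histone gene Hist1h2ap, of which 93.4% is shared with other histone genes. Adjusted p-values of these 10 genes lay between 1.00e-18 and 2.16e-12.

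The lowest fold changes by the same rule belonged to genes with few or no counts in WT31, of which 9 are given. Mbp, a myelin protein, stood at 1596, 1605, 1273, 1435 and 1484 CPM in RET and 0.645, 0.418, 0.621, 0.654 and 1.07 CPM in WT31 (log2 fold change -11.10, SE 0.43, adjusted p = 9.92e-18). Fndc3c1 (0.0457 against 138 CPM, log2 fold change -11.48, SE 0.48, adjusted p = 4.27e-17) was lower as well, and Arfgef3 was at 40.7 ± 4.89 CPM in RET with 2 counts in WT31, a ratio of RET to WT31 of 2677 (95% counting interval 741 to 22112) (adjusted p = 5.79e-15). Both WT31 counts of Arfgef3 and 3 of the 6 of Fndc3c1 came from replicate 4. Without that library the log2 fold change of Arfgef3 went from -10.59 to -11.06, and that of Fndc3c1 was -11.84. Gsdmc, a pore-forming gasdermin, and the mitochondrial protein Chchd10 stood at 186 ± 31.2 and 234 ± 26.1 CPM in RET. In WT31 most of their few counts came from replicate 4, and their log2 fold changes were -11.28 and -11.19 with it and -12.08 and -12.20 without it. The other 4, Gm42634, Gm43836, Gm42605 and Gm44267, have all of their 31-base sequences in other genes and form pairs with identical counts, so their values cannot be assigned to a locus.

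Genes of chromosome 6 were mostly lower in WT31 along the length of the chromosome. Of its 776 tested genes 536 (69.1%) were lower and 111 (14.3%) higher, against 34.6% lower and 38.0% higher over the 14471 genes elsewhere. The median log2 fold change was -0.85, and the medians of the other 19 chromosomes with at least 100 tested genes lay between -0.25 and 0.32. In 8 consecutive blocks of 97 tested genes each, from chr6:3190691-29761365 to chr6:128585625-149563329, the medians lay between -1.06 and -0.64. Per library, the median deviation of chromosome 6 genes from their mean over the 10 libraries was taken. It lay between -0.41 and -0.38 in WT31 and between 0.41 and 0.44 in RET. No libraries of the 2 lines overlapped, which also held on most other chromosomes. On chromosome 13, for example, it lay between 0.15 and 0.21 in WT31 and between -0.18 and -0.13 in RET. For chromosome 6 genes the deviation lay between 0.22 and 0.24 in B16F10 luc2, -0.60 and -0.57 in D4M and -0.43 and -0.38 in HCmel12. This pattern was noticed in the data. The median was -0.32 when all 34301 genes with at least 1 count were fitted, and lay between -0.87 and -0.58 in the other alternatives.

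**Figure D5:**
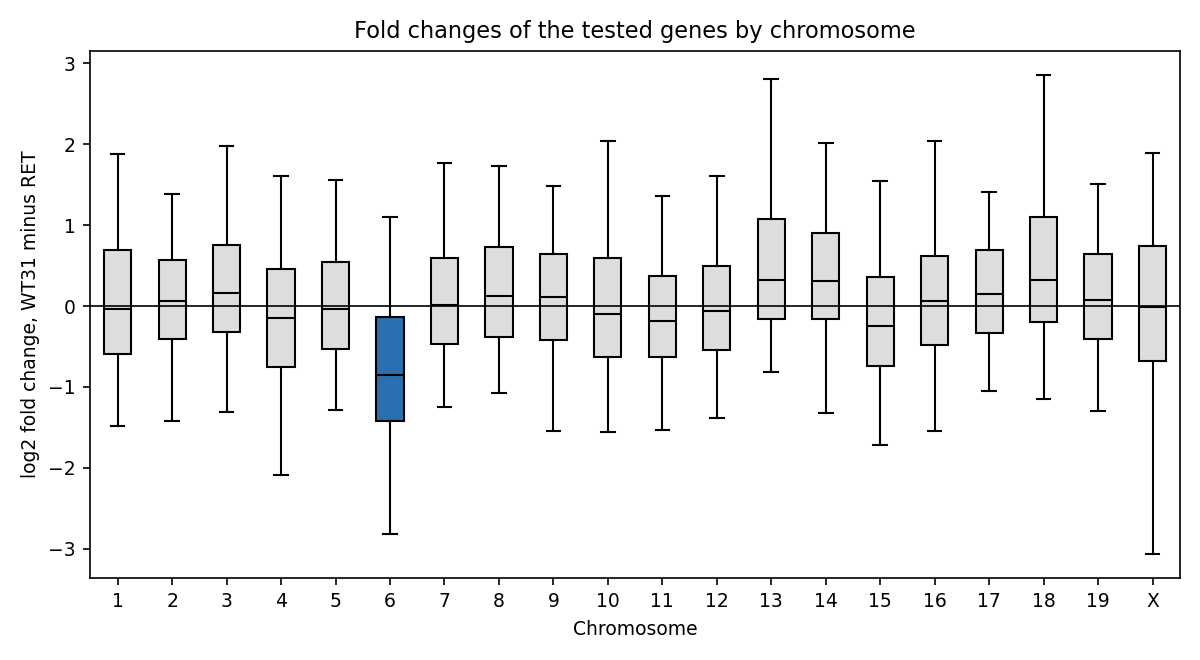
Boxes give the median and the quartiles of the log2 fold change (WT31 minus RET) of the tested genes of each chromosome, with whiskers from the 10th to the 90th percentile. The box of chromosome 6 (blue) has its median at -0.85, while the medians of all other chromosomes shown lie between -0.25 and 0.32.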

How the data were processed

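RNA was sequenced from 25 libraries of 5 murine melanoma lines, and the 10 libraries of WT31 and RET were compared. Per the labels and the methods of the study, the authors trimmed reads with Trim Galore (0.6.4 in the processing notes) and pseudo-aligned them with kallisto against GRCm38.p6. The deposited files hold estimated counts per gene, which are not normalized and need not be whole, and TPM per gene from the same quantification by the authors. All 55385 genes were read, of which 55144 matched a symbol and position in GENCODE vM21.

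Counts of all 25 libraries were filtered with filterByExpr by line, scaled by TMM (edgeR 4.0.16), transformed with voom and fitted with limma 3.58.1 in R 4.3.3, with 1 mean per line and no covariate. Genes with a Benjamini-Hochberg adjusted p under 0.05 were called. The spread was estimated over all 5 lines. CPM are TMM-scaled, and 15247 genes were tested, which left 0.0648% of the counts of the 10 libraries untested. Depth was even, and 3 counts correspond to 0.111 to 0.120 CPM in 1 library and to 0.0228 CPM over the WT31 and 0.0234 CPM over the RET libraries. Alternatives were edgeR's quasi-likelihood test and DESeq2 1.42.0 on rounded counts, other scalings and filters, a fit of the 10 libraries alone, a replicate block, TPM with pseudocounts of 1 and 0.1 (24 libraries), stricter thresholds and leaving out each of the 10 libraries. The fit was also run on simulated counts, but no result of that run is given or used here.

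The genes named were all members of the list of driver genes, the 10 highest and 10 lowest fold changes among called genes with a mean of at least 10 CPM in the higher line, and up to 3 called members per direction of every other list with at least 5 CPM in the higher line. Any other gene was picked once its values had been seen, and is so described, or is a list member that was not called. A few genes that meet these rules are not reported here and were left out of the plots by gene and the checks of named genes. The members compared, the 23 gene lists and the rules were chosen with earlier results of these data known. Transcript sequences of GENCODE vM21 were cut into 31-base pieces to find genes that share sequence, since counts of such genes can be divided wrongly. Promoter windows came from RefSeq, and motifs were searched on both strands. A count table does not show strand or exons.

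Replicate numbers are shared by the lines in the labels. Deviations from the line means in same-numbered libraries correlated between -0.020 and 0.047, so the numbers were not treated as pairs.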

Additional observations from a re-analysis of the deposited data

Results flagged for a closer look

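In 20 of 223 groups of 5 libraries, over named genes with a mean of at least 1 CPM, 1 library lay far from the other 4 of its line by Dixon's test at 95%, which chance gives in about 1 in 20 groups. Of these 20, 11 were in WT31 and 9 in RET, and RET replicate 3 held 7 of them.

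In RET replicate 3, Mt1 was low at 472.2 CPM (nearest other library 583.5) and Mt2 at 283.6 CPM (365.7). In the same library Fgfr3 was high at 17.5 CPM (8.063), Serpinf1 at 23.52 CPM (11.41), Ccn4 at 24.94 CPM (15.42), Serpine2 at 5.091 CPM (2.373) and Plk2 at 17.42 CPM (13.01). In the other RET libraries Car12 was high at 8.954 CPM in replicate 2 (6.484) and Fstl3 high at 14.73 CPM in replicate 4 (12.96).

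In WT31 replicate 1, Rb1 was high at 50.84 CPM (41.06), Ets1 at 252.8 CPM (185.3), Itgb5 at 4.02 CPM (1.967) and Bmp2 at 18.94 CPM (12.69). In WT31 replicate 4, Hras was high at 59.17 CPM (55.95), Plagl1 at 5.424 CPM (0.9116), Eif2s3x at 301.0 CPM (278.4) and Ddx3x at 451.3 CPM (398.2). Cdkn2a was high at 3.229 CPM in WT31 replicate 2 (2.808), and in WT31 replicate 5 Fbn2 was low at 7.499 CPM (11.81) and Cdh3 high at 27.0 CPM (16.65).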

How the results depend on the processing

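The counts of called genes stayed within 1.5 times of 11164 (5614 higher, 5550 lower) in all alternatives but the fold limit, and the calls they shared with the main result had the same sign in all of these except TPM, where 7 signs differed. Requiring a fold of at least 2 left 4754 genes, 2538 higher and 2216 lower. Leaving out 1 of the 10 libraries gave 10938 to 11067 called genes, 5505 to 5594 higher and 5426 to 5487 lower. TPM gave 6073 higher and 4476 lower with a pseudocount of 1 and 6126 and 4533 with 0.1, and the latter moved the median log2 fold change of all genes to 0.10. The replicate block gave 11173 called genes, 5612 higher and 5561 lower, and 1 of the 5 numbers correlated best with its own number across the lines. Of 2944 values of named genes under the alternatives, 2934 kept direction and call. The log2 fold change of Nf1 reversed on TPM (-0.013 with either pseudocount), and Tyrp1 lost its call in 2 alternatives, and Tfe3 and Ddx3x lost theirs on TPM, where Trp53 gained one. DESeq2 gave no adjusted p for Chchd10, Mbp, Tyrp1 and Plagl1. Of 1012 counts of list members, 47 moved by over 1.5 times, 24 of them where at least 10 counts in every library were required and 0 on leaving out a library. Folds of named genes moved by over 1.5 times for 94 genes on TPM with a pseudocount of 1, 63 with 0.1, 27 with DESeq2 and 24 with edgeR, of which 17, 2, 0 and 0 had a mean of at least 1 CPM in both lines. Among these last, the log2 fold change of Nras moved from 0.79 to 3.18 and 3.20 on TPM, and that of Fgfr3 from -2.72 to -1.47 and -2.11. Leaving out a library did so for 3 named genes, Slc2a3 (log2 fold change -7.93 without WT31 replicate 1), Gsdmc (-12.08 without WT31 replicate 4) and Chchd10 (-10.59, -10.60 and -12.20 without WT31 replicates 2, 3 and 4). The causes were not tested. Folds of genes at or near 0 in a line are limited by depth.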
